A study of Mus musculus with 12 samples.

Results

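Splicing factor genes were taken as the mouse protein-coding genes of RefSeq on GRCm38 whose symbols start with Srsf, Hnrnp, Sf3a, Sf3b or Snrp, 53 of 21900 protein-coding genes. Chromatin at these genes was described by ATAC-seq, in which the Tn5 transposase cuts accessible DNA, in ER-Hoxa9 Lys-GFP cells. These are cultured C57BL/6 mouse myeloid progenitors that a fusion of the estrogen receptor and Hoxa9 holds immature while estradiol (E2) is present, with a GFP reporter for lysozyme expression, grown here in medium with stem cell factor. All groups carried the fusion and the reporter and, per the labels, differed in E2 treatment. The group kept in E2 throughout is called continuous E2. In 4 groups E2 was withdrawn for 24, 40, 56 or 72 h and then added back for 96, 80, 64 or 48 h, and in the last group it was withheld for 120 h. Each group had 2 libraries. Per the labels' protocols, nuclei of a preparation were split between transposition reactions, and nothing says that the libraries came from separate cultures or how many clones the line holds.

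One peak list was used per group, with the position of each peak and no score, count or depth. There were therefore no replicate values, no test between conditions was possible, and intervals below cover counting error over regions only. After cleaning, the lists held 13165, 11465, 9940, 8989, 9581 and 7987 peaks from continuous E2 through 24, 40, 56 and 72 h to 120 h, and their union held 16028 regions. Regions that overlap a splicing factor gene, or whose nearest protein-coding gene within 50000 bases is one, numbered 58, at 50 of the 53 genes. Progenitor genes carried peaks, with a called region in continuous E2 at Mpo and at Kit and 5 at Cd34, while no region of any list was assigned to the T cell gene Cd3e or the epithelial gene Epcam. In a bulk assay, fewer cells with an open site and a less open site in each cell cannot be told apart.

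Splicing removes introns in the spliceosome, which is built from small nuclear ribonucleoproteins (snRNPs). The Snrp genes encode the Sm ring proteins and proteins particular to the U1 and U2 snRNPs. The Sf3a and Sf3b genes encode the U2 subcomplexes that hold the branch point, and SF3B1 and SRSF2 are known in human myeloid neoplasms as recurrent targets of mutation. SR proteins, encoded by Srsf genes, mostly promote the use of exons, and many hnRNP proteins oppose it. Some genes with Hnrnp symbols have other main roles, such as Hnrnpd, whose product AUF1 binds AU-rich elements of mRNAs.

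The promoters of 5 genes show what the calls below refer to: those of Srsf2 and Hnrnpl, called at 120 h and not in continuous E2, that of Snrpb2, called in every list but 120 h, that of Srsf7, called at both end points and in 1 add-back list, and that of Hnrnpa1, called in every list. Each sequence gives the 250 bases before the RefSeq start on GRCm38.p6, 5′ to 3′ on the strand of the gene. Capitals mark any of 9 short motifs on either strand, namely CCGGAAG (ETS), CCAAT (NF-Y), GGGCGG (SP/KLF), GCATGCG (core of NRF1), CACGTG (E-box), TGACGTC (CRE), CCATNTT (YY1), TATAAA and TCGCGAG. Those of NRF1, CRE and TCGCGAG can overlap their own reverse complement, and the E-box is its own. The windows lie on the minus strand at chr11:116853095-116853344 for Srsf2 and chr17:80207306-80207555 for Srsf7, and on the plus strand at chr7:28810640-28810889 for Hnrnpl, chr2:143062819-143063068 for Snrpb2 and chr15:103240147-103240396 for Hnrnpa1.
Srsf2: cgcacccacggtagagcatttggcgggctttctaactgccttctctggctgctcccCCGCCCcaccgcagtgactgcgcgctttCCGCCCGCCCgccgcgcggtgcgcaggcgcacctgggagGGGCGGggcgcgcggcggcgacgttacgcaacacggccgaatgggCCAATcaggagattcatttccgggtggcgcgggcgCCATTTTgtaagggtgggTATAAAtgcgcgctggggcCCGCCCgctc
Hnrnpl: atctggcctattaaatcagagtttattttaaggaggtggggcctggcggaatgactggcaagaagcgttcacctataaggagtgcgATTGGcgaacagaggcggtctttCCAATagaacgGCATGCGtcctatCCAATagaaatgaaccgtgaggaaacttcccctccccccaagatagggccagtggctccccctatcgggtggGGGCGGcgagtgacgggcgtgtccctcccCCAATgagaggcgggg
Snrpb2: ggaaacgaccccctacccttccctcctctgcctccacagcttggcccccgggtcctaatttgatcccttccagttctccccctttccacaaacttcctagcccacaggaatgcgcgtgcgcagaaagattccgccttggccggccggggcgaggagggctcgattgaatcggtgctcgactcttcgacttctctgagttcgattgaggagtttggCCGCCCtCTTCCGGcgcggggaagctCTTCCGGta
Srsf7: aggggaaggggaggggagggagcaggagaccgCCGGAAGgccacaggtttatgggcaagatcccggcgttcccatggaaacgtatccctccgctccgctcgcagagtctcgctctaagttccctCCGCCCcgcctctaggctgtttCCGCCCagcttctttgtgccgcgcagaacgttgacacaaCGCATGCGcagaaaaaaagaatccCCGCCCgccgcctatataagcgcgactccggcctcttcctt
Hnrnpa1: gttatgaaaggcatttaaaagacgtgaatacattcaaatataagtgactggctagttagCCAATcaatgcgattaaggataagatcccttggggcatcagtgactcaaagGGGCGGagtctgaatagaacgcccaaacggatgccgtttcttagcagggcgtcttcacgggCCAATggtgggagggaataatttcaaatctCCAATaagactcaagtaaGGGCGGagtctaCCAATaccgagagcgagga

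These windows differ in base composition. That of Srsf2 was 69.6% G and C with 33 CpG dinucleotides, and that of Hnrnpa1 46.0% with 11. In Snrpb2 the reverse complement of CCGGAAG stood at 2 places near the start, whereas Hnrnpa1 held 4 CCAAT boxes and Hnrnpl held 4 on either strand. RefSeq promoter entries were matched for 47 of the 53 genes. For 44 of these genes a start lay inside a called region. Over their 55 entries, some of which overlap, CCGGAAG or its complement occurred in 18 (32.7%), against 18.1% of the 8512 entries of protein-coding genes with a start in any region and 8.98% of all 21263. The GC box occurred in 70.9% against 65.7% and 42.6%, and CCAAT in 45.5% against 38.2% and 35.4%. TATAAA occurred in 9.09% against 4.59% and 11.6%, and TCGCGAG in 9.09% against 4.23% and 2.19%, each in 5 entries. Overlapping entries can hold the same site, as those of Srsf4 did for TCGCGAG and CCGGAAG and those of Sf3b2 for CCGGAAG. The counts are therefore of entries and not of separate sites or genes. The NRF1 core was in 9.09% against 6.86% and 3.73%, the E-box in 9.09% against 9.47% and 6.63%, and CRE in 7.27% against 5.69% and 3.36%. The YY1 core, in 3 entries, stood at 5.45% against 10.2% and 11.2%. Median G and C content was 61.6% in the entries of splicing factor genes and also 61.6% in all entries in regions. A match is a description of the letters and not of binding.

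Nearly all splicing factor genes had a peak in some list, and most of these peaks lay at the ends of the gene. A region was assigned to 50 of 53 genes (94.3%, 95% Wilson interval 84.6 to 98.1), against 52.6% of all protein-coding genes. With regions that also overlap another gene left out, 34 of the 53 genes kept a region. The genes without one were Srsf12, which encodes an SR-related protein, Snrpn, the imprinted gene of a neuronal Sm protein, and Hnrnpa1l2-ps2, whose symbol is that of a pseudogene although RefSeq lists it as protein-coding. Of the 58 regions, 48 lay within 1000 bases of the start or end of a gene, here called a gene boundary. Another 4, at Hnrnph1, Hnrnpl, Hnrnpf and Srsf11, lay further inside the annotated gene and held a RefSeq start. In the other 6 none was found, but Hnrnpll and Hnrnpul2, the genes of regions among these, had no promoter entry. A single region was found at 43 genes, 2 at each of 6 genes and 3 at Hnrnpf, which encodes a protein that binds runs of G. In 46 regions that held a start of their gene, the position of the centre relative to it had a median of -31 bases and a range of -584 to 638, negative values being upstream. Of the 58 regions, 21 also overlapped a gene outside the group, so the call there cannot be given to 1 gene. Among them, Srsf2 shared its region with Mfsd11, Srsf7 with Gemin6, Hnrnpa1 with Cbx5, Hnrnpa2b1 with Cbx3 and Sf3b3 with Cog4. Likewise, Hnrnpk shared with Rmi1, Hnrnph3 with Pbld2, Snrpa with BC024978, Hnrnpd with 4930524J08Rik and, at its boundary, Hnrnpll with 4933407O12Rik. Of these 21, 10 were called in all lists and 10 changed call more than once, against 17 and 8 of the 37 regions with no other gene. All 21 lay at gene boundaries, as did 27 of the 37, and of these 27 the numbers were 14 and 7. Of all 7947 boundary regions of the series, 51.8% were called in all lists and 23.5% changed call more than once. Shared regions were not counted over other genes, and whether sharing plays a part was not tested.

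**Figure D1:**
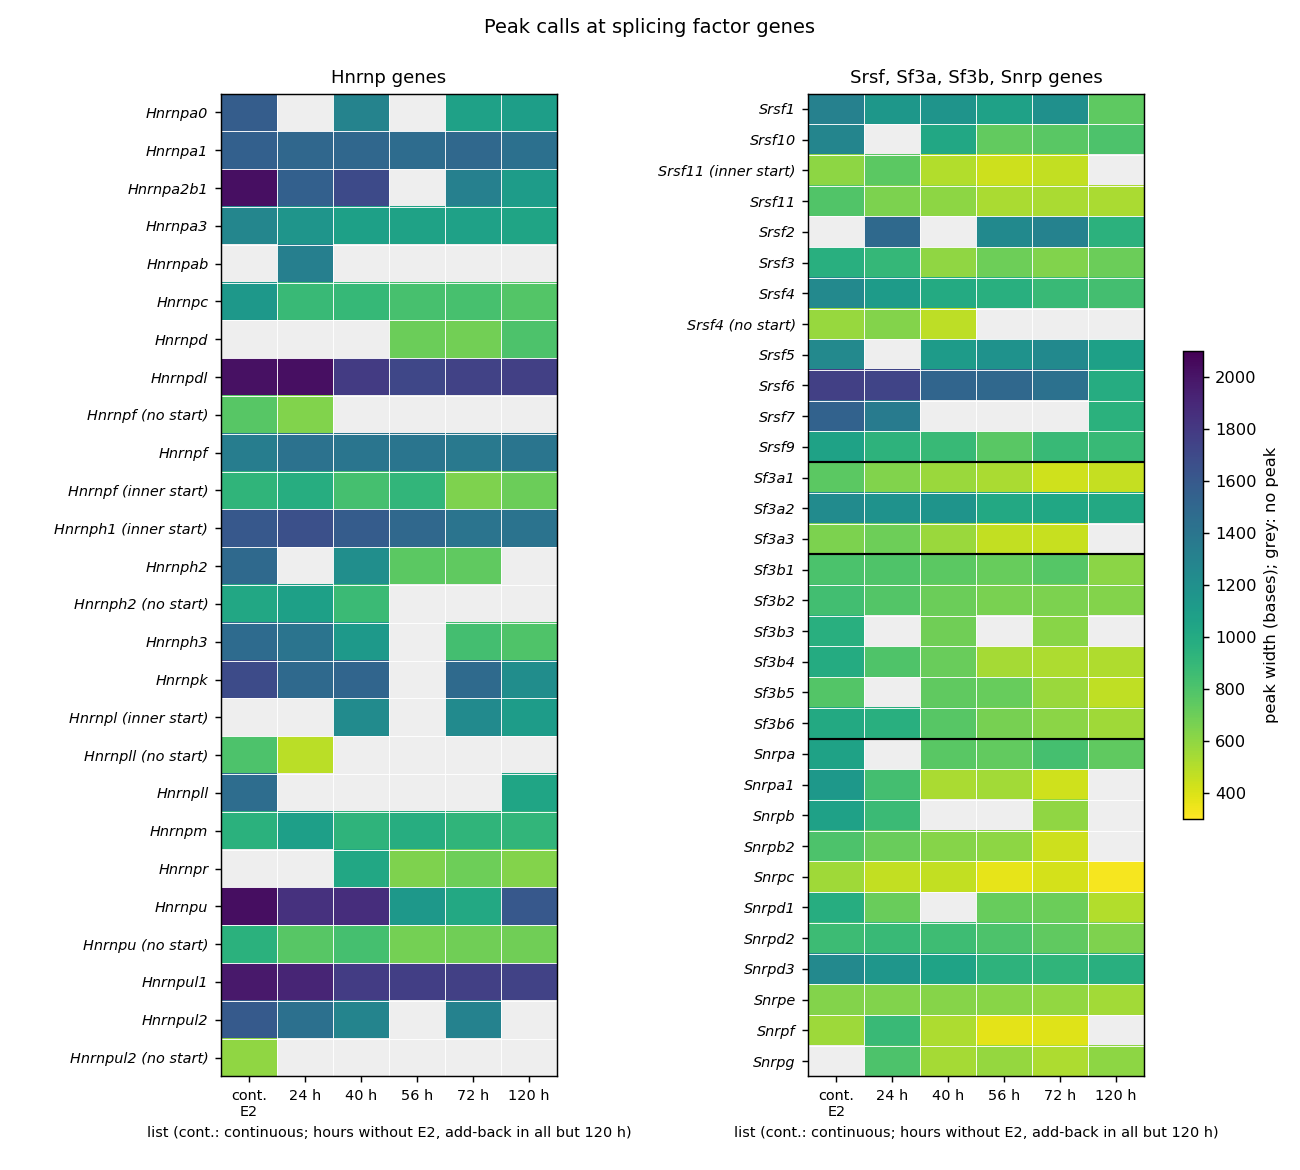
Peak calls and widths at the 58 regions of splicing factor genes; rows are regions named by gene, columns are the 6 lists in order of time without E2, colour is the peak width in bases and grey means no peak. Regions away from a gene boundary are marked as holding an inner RefSeq start or no start. The mark of no start includes regions of Hnrnpll and Hnrnpul2, which had no promoter entry. In 27 rows there is a peak in all 6 lists, and in 18 the call changes more than once.

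Of the 58 regions, 52, 46, 48, 42, 50 and 43 were called in the lists of continuous E2, 24, 40, 56, 72 and 120 h. As shares these were 89.7%, 79.3%, 82.8%, 72.4%, 86.2% and 74.1%, against 82.1%, 71.4%, 61.9%, 55.9%, 59.5% and 49.7% of all 16028 regions. Genes with a called region numbered 44, 41, 43, 39, 47 and 41 of the 53 in these lists, against 46.9%, 44.2%, 41.6%, 39.5%, 41.3% and 35.2% of all protein-coding genes. Boundary regions made up 48 of the 58 and 7947 of the 16028, so shares are also given by position. Among regions at gene boundaries, splicing factor genes had 89.6% called in continuous E2, 79.2% at 24 h, 85.4% at 40 h, 79.2% at 56 h, 93.8% at 72 h and 81.2% at 120 h, and all 7947 boundary regions had 86.9%, 84.1%, 81.2%, 79.0%, 81.6% and 68.0%. The Wilson interval over the 48 splicing factor regions was 83.2 to 97.9 at 72 h, above the 81.6% of all boundary regions. At 120 h it was 68.1 to 89.8, with the 68.0% of all boundary regions at its lower edge. In the other lists it held the share of all boundary regions. These intervals cover counting error over regions only, and the regions are not replicates of a condition. The 10 regions away from boundaries had 9, 8, 7, 4, 5 and 4 called, against 77.5%, 59.0%, 43.0%, 33.2%, 37.8% and 31.8% of all such regions. Whether splicing factor genes differ from others was not tested.

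**Figure D2:**
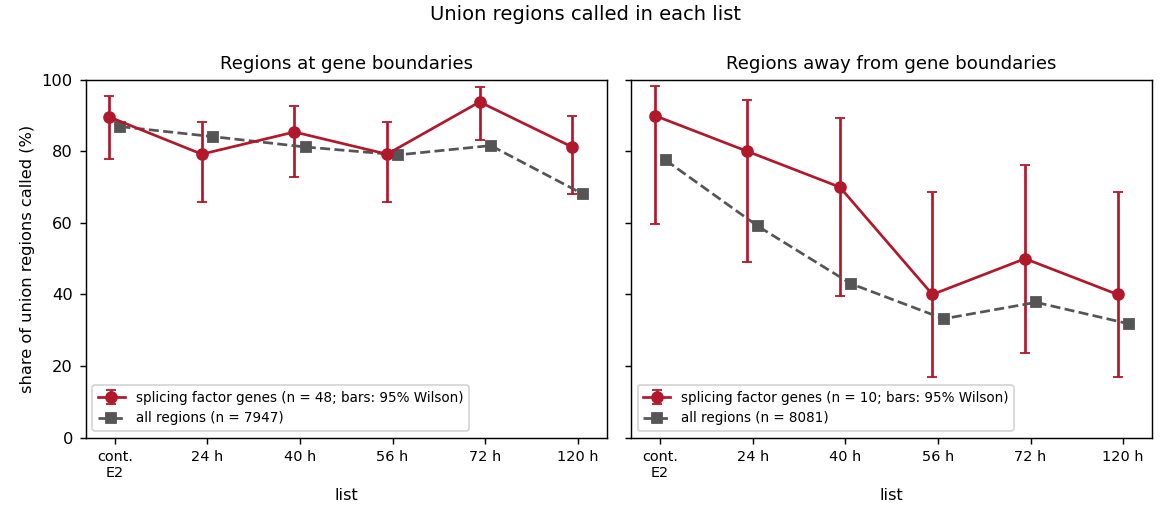
Share of union regions called in each list, in percent, for splicing factor genes (red circles, bars are 95% Wilson intervals over regions) and for all regions (grey squares), at gene boundaries on the left and away from them on the right. The red points at boundaries run from 79.2% to 93.8%, and those away from boundaries from 90.0% in continuous E2 to 40.0% at 120 h over 10 regions.

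The first comparison asked which of these regions differed between 120 h without E2 and continuous E2. Of the 52 regions called in continuous E2, 14 were absent at 120 h and are called lost (26.9%, interval 16.8 to 40.3), against 50.6% of all regions. At gene boundaries 8 of 43 were lost (18.6%, 9.74 to 32.6), against 29.6% of all boundary regions, and 6 of 9 away from boundaries, against 73.8%. Of the 43 regions called at 120 h, 5 were absent in continuous E2 and are called gained (11.6%, 5.07 to 24.5), against 18.4% of all regions, and at gene boundaries 4 of 39 (10.3%), against 9.96%. The remaining 38 regions with a call at either end point were kept, and 1, at Hnrnpab, was called at neither. In all 6 lists 27 of 58 were called (46.6%, 34.3 to 59.2), against 32.8% of all regions, and 24 of 48 at boundaries, against 51.8%.

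Of the 9 boundary regions of SR protein genes called in continuous E2, 0 were lost, with an interval of up to 29.9% that holds the 29.6% of all boundary regions. The tenth, at Srsf2, was 1 of 10 called at 120 h and was gained, against 9.96%. Srsf1 encodes an activator of exon use that is often studied as the type member of the family. Its peak (chr11:88047191-88048499) was 1308, 1146, 1171, 1069, 1193 and 745 bases wide from continuous E2 to 120 h, so it narrowed mainly between the last lists. Srsf3, the gene of the smallest SR protein, had widths of 963, 898, 601, 700, 641 and 703 bases. Srsf6, with the widest region of the family at 1769 bases, had peaks of 1761, 1729, 1516, 1492, 1432 and 983 bases. All 3 were called throughout, as were boundary regions of Srsf4, Srsf9 and Srsf11.

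Srsf2 and Srsf7 had gaps in their calls. The Srsf2 region (chr11:116852506-116853987), which holds the promoter printed above, was 1482, 1247, 1299 and 944 bases wide at 24, 56, 72 and 120 h and was not called in continuous E2 or at 40 h. In these 2 lists the nearest peak lay 8477 and 8641 bases away. The Srsf7 region (chr17:80206321-80207857) was 1537, 1354 and 950 bases wide in continuous E2, at 24 h and at 120 h, with no call at 40, 56 or 72 h. SRSF7 is an SR protein also known for a role in mRNA export. Srsf5 (chr12:80945176-80946444) and Srsf10, which encodes an SR protein that represses splicing when dephosphorylated, were called in every list except 24 h.

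Genes of U2 snRNP proteins, a grouping chosen after the values were seen, had 11 boundary regions called in continuous E2. Of these 4 were lost (36.4%, interval 15.2 to 64.6), those of Snrpa1, Snrpb2, Sf3a3 and Sf3b3, a share near the 29.6% of all boundary regions. Snrpa1 (chr7:66060098-66061235) encodes the U2 A′ protein, and its peak was 1138, 836, 527, 552 and 427 bases wide in continuous E2 and at 24, 40, 56 and 72 h. Snrpb2 (chr2:143062687-143063487), for U2 B″, had 801, 713, 627, 606 and 437 bases. Sf3a3 (chr4:124714492-124715191) had 657, 697, 573, 464 and 448 bases. All 3 were missing at 120 h alone. Their peaks at 72 h lay near the narrow end of the 50 called there, which had a median of 767.5 and a range of 391 to 1760 bases. Narrow peaks at 72 h also occurred in regions kept at 120 h, such as Snrpc with 416 and Sf3a1 with 428 bases. Some other lost regions were wider at 72 h, such as those of Hnrnpul2 with 1301 and Hnrnph2 with 737 bases.

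Sf3b3 (chr8:110846504-110847466) differed from these, with peaks of 963, 687 and 623 bases in continuous E2, at 40 h and at 72 h and none at 24, 56 or 120 h. Other genes of the branch point complexes were called throughout, namely Sf3a1, Sf3a2, Sf3b1, Sf3b2, Sf3b4 and Sf3b6. Sf3b1 contacts the branch point, and its peak (chr1:55026986-55027796) was 811, 793, 750, 715, 773 and 615 bases wide. Sf3b5 was missing at 24 h alone. Among the Sf3a and Sf3b genes, the 2 widest regions called in all lists were those of Sf3a2 with 1233 and Sf3a1 with 765 bases, and those of Sf3b6 with 1005 and Sf3b4 with 993 bases.

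Genes of the Sm ring, the core shared by most spliceosomal snRNPs, had mixed calls. Snrpd2, Snrpd3 and Snrpe were called in all lists, the widest regions being those of Snrpd3 with 1254 and Snrpd2 with 883 bases. Snrpf (chr10:93589052-93589931) was 561, 880, 518, 375 and 391 bases wide up to 72 h and missing at 120 h. Snrpb (chr2:130178701-130179770) had 1070, 872 and 598 bases in continuous E2, at 24 h and at 72 h and was not called at 40, 56 or 120 h. Snrpg (chr6:86370980-86371854) was gained, with 805, 543, 587, 520 and 605 bases in the lists from 24 to 120 h and no call in continuous E2. Snrpd1 was missing at 40 h alone. Of the U1 genes, Snrpc was called throughout, with the narrowest peak of all 43 at 120 h (328 bases), and Snrpa was missing at 24 h alone. Boundary regions of Snrp genes had a median union width of 883 bases, against 1273.5 for Srsf and 1475.5 for Hnrnp genes. Of the boundary regions called in continuous E2, 4 of 10 were lost for Snrp, 0 of 9 for Srsf and 2 of 15 for Hnrnp genes. The intervals were 16.8 to 68.7, 0.00 to 29.9 and 3.74 to 37.9, and each held the 29.6% lost over all genes. A difference between families was not tested.

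The hnRNP genes held the widest peaks and most of the regions in which neither a boundary nor a start was found. The 2 widest regions called in all lists were those of Hnrnpdl with 2102 bases (chr5:100038366-100040467) and Hnrnpu with 2031 bases (chr1:178336162-178338192). Hnrnpu encodes a nuclear scaffold protein, and its peak was 2031, 1843, 1864, 1139, 1014 and 1606 bases wide. Hnrnpa1, whose product is a widely studied splicing silencer, changed little in width, with 1549, 1502, 1502, 1462, 1491 and 1437 bases. Lost boundary regions lay at Hnrnph2 (chrX:134600442-134601924), shared with Gla, and at Hnrnpul2 (chr19:8818981-8820567), shared with Ttc9c. Hnrnph2 had 1483, 1213, 754 and 737 bases in continuous E2, 40, 56 and 72 h and was not called at 24 or 120 h. Hnrnpul2 had 1587, 1433, 1285 and 1301 bases in continuous E2, 24, 40 and 72 h and was not called at 56 or 120 h.

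Of the 19 regions of hnRNP genes called at 120 h, 3 were gained, against 18.4% of all regions called at 120 h. Hnrnpr (chr4:136310174-136311200) had 1021, 646, 696 and 635 bases at 40, 56, 72 and 120 h and no call before. Hnrnpd (chr5:99978623-99979442) had 702, 683 and 804 bases at 56, 72 and 120 h. Hnrnpl encodes a protein that binds CA repeats, and its region (chr7:28810309-28811548) had 1235, 1240 and 1105 bases at 40, 72 and 120 h with no call in continuous E2, at 24 h or at 56 h. In the lists where the Hnrnpr and Hnrnpd regions were absent, the nearest peak lay at least 23856 and 58924 bases away. The Hnrnpab region (chr11:51605943-51607265), 1323 bases wide, was called at 24 h alone.

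All 6 regions with neither a boundary nor a start in the RefSeq promoter entries were called in continuous E2. Hnrnpll and Hnrnpul2 had no entry, so a start of these genes could not be looked for. Of the 6 regions, 5 were lost, against 77.4% of all such regions. These 5 lay 8650 bases from Hnrnpf, 33496 from Hnrnph2, 37614 from Hnrnpll, 8599 from Srsf4 and inside Hnrnpul2. The region of Hnrnpul2, 599 bases wide, was called in continuous E2 alone. Those of Hnrnpf (767 and 643 bases) and Hnrnpll (802 and 487 bases) were called up to 24 h, and those of Hnrnph2 (1018, 1075 and 870 bases) and Srsf4 (575, 632 and 481 bases) up to 40 h. None of the 5 was called at 56, 72 or 120 h. The sixth, 29737 bases from Hnrnpu, was called in all lists with 950, 766, 828, 678, 690 and 688 bases. Assignment by distance does not show that a region acts on the gene. Hnrnpll, whose product controls exon use of Cd45 in lymphocytes, was the gene whose boundary region (1454 bases in continuous E2 and 1043 at 120 h) was called at both end points and in no add-back list.

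The second comparison asked which end point the add-back lists were like. The time with E2 restored shortened as the time without it lengthened, so the pair of durations is 1 variable. Of the 14 lost regions, 11 were called at 24 h, 10 at 40 h, 6 at 56 h and 9 at 72 h (78.6%, 71.4%, 42.9% and 64.3%), against 63.2%, 42.5%, 27.0% and 26.9% of all lost regions. The 8 at boundaries and the other 6 ran differently. At boundaries 6, 7, 5 and 8 were called at 24, 40, 56 and 72 h, so that every lost boundary region was still or again called at 72 h, against 74.0%, 61.2%, 50.9% and 51.2% of all lost boundary regions. Away from boundaries 5, 3, 1 and 1 of the 6 were called, against 58.4%, 34.3%, 16.4% and 16.2%, and the 1 at 56 and 72 h was the inner start of Srsf11, missing at 120 h alone. Of the 5 gained regions, 2, 3, 4 and 5 were called at 24, 40, 56 and 72 h, against 30.5%, 39.7%, 47.6% and 64.1% of all gained regions. The 4 at boundaries had 2, 2, 4 and 4 called, against 56.1%, 70.4%, 74.5% and 85.7% of all gained boundary regions.

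Calls at splicing factor genes did not follow a single switch along the order of withdrawal in 18 of 58 regions (31.0%, interval 20.6 to 43.8), against 24.2% of all regions, and in 17 of 48 at boundaries (35.4%, 23.4 to 49.6), against 23.5%. Of the 35 boundary regions called at both end points, 11 were missing from 1 or more add-back lists (31.4%, 18.6 to 48.0), against 15.3% of all such regions. A single list was missing for 14 of 58 regions (24.1%), against 13.6% of all regions. At boundaries it was 13 of 48 (27.1%, 16.6 to 41.0), against 1429 of all 7947, a share inside that interval.

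Of the 52 regions called in continuous E2, 9 were absent at 24 h, 7 at 40 h, 14 at 56 h and 7 at 72 h (17.3%, 13.5%, 26.9% and 13.5%), against 22.2%, 33.0%, 41.2% and 39.7% of all regions. At boundaries 8, 4, 9 and 2 of 43 were absent (18.6%, 9.30%, 20.9% and 4.65%), against 11.7%, 15.5%, 18.5% and 16.9%. The 8 at 24 h were those of Hnrnpa0, Hnrnph2, Hnrnpll, Sf3b3, Sf3b5, Snrpa, Srsf5 and Srsf10. The 9 at 56 h were those of Hnrnpa0, Hnrnpa2b1, Hnrnph3, Hnrnpk, Hnrnpll, Hnrnpul2, Sf3b3, Snrpb and Srsf7. At 40 h Hnrnpll, Snrpb, Snrpd1 and Srsf7 lacked a peak, and at 72 h Hnrnpll and Srsf7. Hnrnpk encodes a protein that binds runs of C, and its peak (chr13:58401438-58403129) had 1692, 1488, 1514, 1478 and 1220 bases in the other lists. Hnrnpa2b1 (chr6:51469026-51471052) had 2027, 1551, 1696, 1315 and 1104 bases in those lists, with the nearest 56 h peak 197656 bases away. The 67 absences over the splicing factor regions had the nearest peak of the same list at least 4361 bases away, with a median of 39043, so none lay within 1000 bases of a peak. The same distances were not computed for other regions.

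Union width differed between the classes of calls. Regions with more than 1 change of call had a median union width of 1388.5 bases, those called in all lists 1123 and those with 1 change 802. Position differed too, with 17 of 18, 24 of 27 and 7 of 13 at boundaries, where the medians were 1454, 1133 and 875 bases. Of the 48 boundary regions of splicing factor genes, 14 fell in the widest of 10 width classes of all boundary regions (1427 bases and over). In that class 29.6% of all boundary regions called at both end points were missing from an add-back list, against 10.6% to 12.3% in the classes from 729 to 1116 bases and 15.3% in the narrowest class (183 to 610 bases), and for splicing factor genes 6 of 11 were missing. Of all boundary regions, 43.4% were called in all 6 lists in the widest class, 64.0% in the class of 958 to 1030 bases and 17.4% in the narrowest. More than 1 change of call occurred in 32.7% in the widest class, 16.5% in that of 958 to 1030 bases and 38.8% in the narrowest, so both ends of the width range had more changes than the middle. The narrowest class held 1 of the 48 splicing factor regions, that of Snrpc. Union width depends on which lists hold a peak, and the part that region width has in the gaps was not tested.

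**Figure D3:**
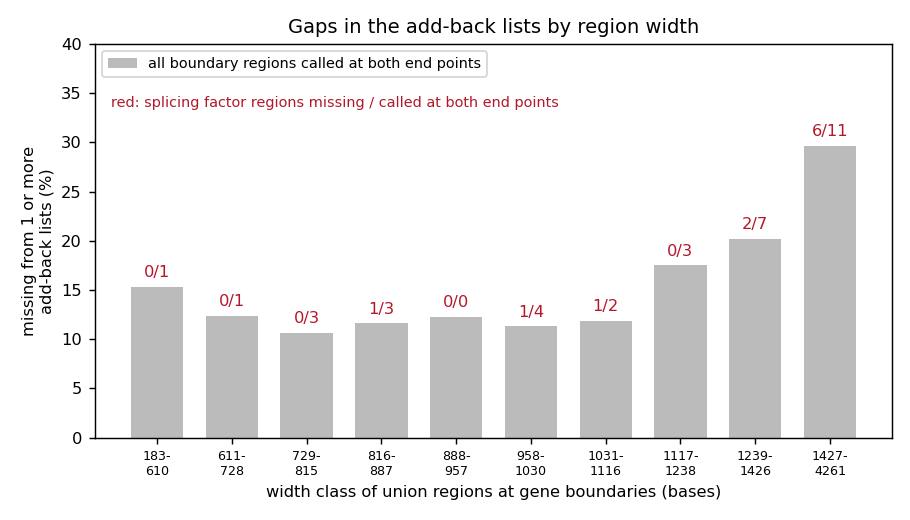
Share of boundary regions called at both end points that were missing from 1 or more add-back lists, in percent, by width class of the union region in bases (grey bars, all genes); red fractions give splicing factor regions missing over those called at both end points. The bar of the widest class stands at 29.6%, with 6 of 11 splicing factor regions missing.

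Peaks that stayed were narrower at 120 h than in continuous E2. Of the 38 regions called at both end points, 37 had a narrower peak at 120 h, with a median ratio of widths of 0.723 (quartiles 0.606 and 0.823), against 0.665 over all 6502 such regions, 6282 of which were narrower. The exception was a region of Hnrnpf (chr6:117906603-117908025), with 1400 bases at 120 h and 1338 under continuous E2. The smallest ratios were 0.516 at Snrpd1 (506 and 980 bases) and 0.517 at Sf3b4 (513 and 993 bases), and among the largest were 0.964 at Hnrnpm and 0.928 at Hnrnpa1. In the 27 regions of all 6 lists the median width was 1062, 978, 894, 918, 878 and 785 bases from continuous E2 to 120 h, and in all 5265 such regions 934, 841, 745, 639, 637 and 612 bases. Median peak width of the whole list went the same way, 581 bases at 120 h and 839 in continuous E2, and its part in these values was not tested.

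**Figure D4:**
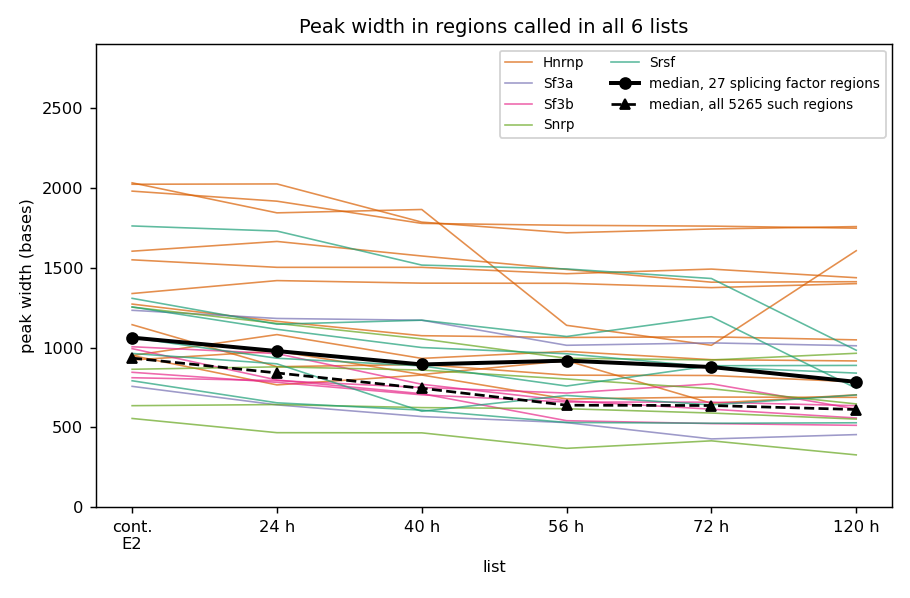
Peak width in bases by list for the 27 splicing factor regions called in all 6 lists; thin lines are single regions coloured by gene family, the solid black line is their median and the dashed line the median of all 5265 such regions. The solid line starts at 1062 bases and ends at 785, and the dashed line starts at 934 and ends at 612.

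The narrowing took bases from both sides of the start. In 33 regions called at both end points with a RefSeq start of their gene, the peak held the start in all 33 at 120 h and in continuous E2. Over all 4287 regions called at both end points with a start, the peak held it in 4191 at 120 h and 4282 in continuous E2. Outside the splicing factor genes the start nearest the centre was used, of whichever protein-coding gene, so the measures are not fully alike. The upstream edge had a median position of -410 bases at 120 h and -657 in continuous E2, and the downstream edge 364 and 505 bases. Edges moved inwards by a median of 162 bases upstream and 137 downstream, against 115 and 182 bases over all 4287 regions with a start. More was taken downstream than upstream in 21 of the 33 (63.6%), against 63.7% of all. At Srsf1 the downstream edge lay 626 bases after the start at 120 h and 1126 in continuous E2, while the upstream edge lay at -118 and -181. At Hnrnpul1 the upstream edge moved by 14 bases, with positions of -1559 at 120 h and -1573 in continuous E2.

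**Figure D5:**
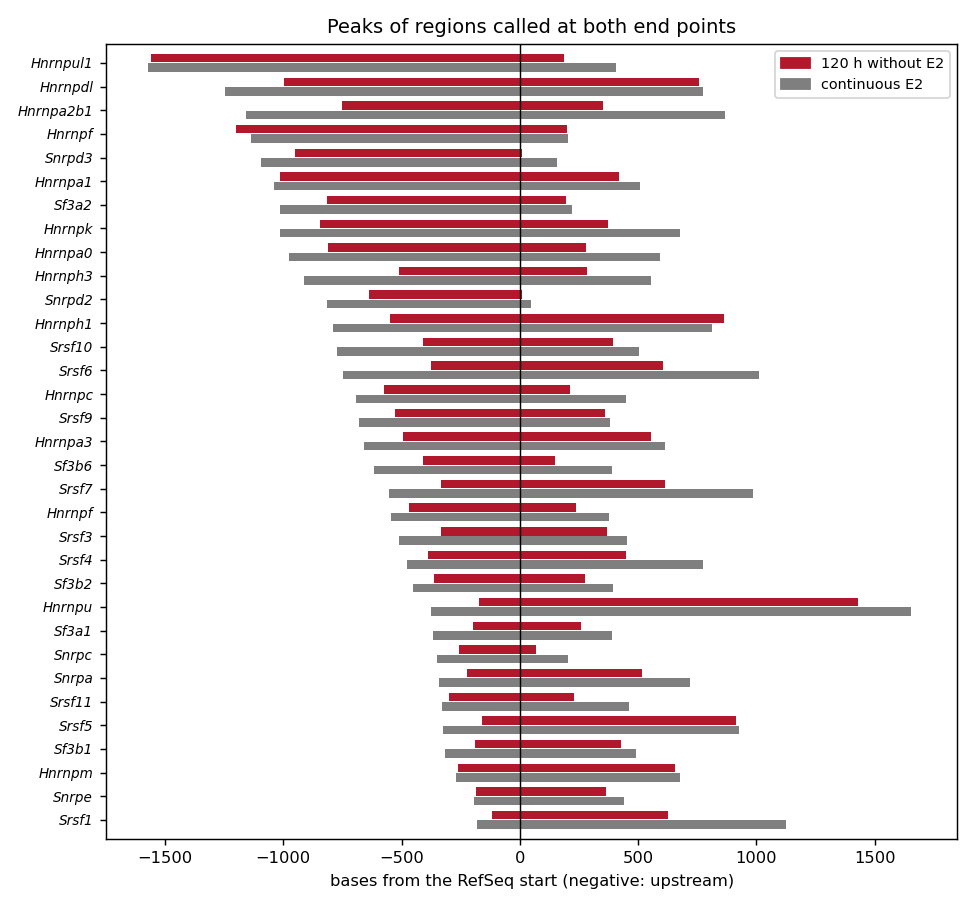
Extent of the peak around the RefSeq start, in bases, for 33 splicing factor regions called at both end points, with the 120 h peak (red) above the continuous E2 peak (grey) of each gene. Every bar crosses the start at 0, and the red bar is shorter than the grey one in all rows but 1 of the Hnrnpf rows.

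Other genes of splicing were read from 7 lists of 145 genes outside these symbols, covering U2AF, tri-snRNP, PRP19, LSM, exon junction, SR-related and other regulatory proteins. A region was assigned to 136 of them, 162 regions in all. At 120 h 36 of 138 were lost (26.1%), 16 of 118 gained (13.6%), and 82 were called in all lists (50.6%), with more than 1 change of call in 41 (25.3%). Over all regions of the series the shares were 50.6% lost, 18.4% gained, 32.8% in all lists and 24.2% with more than 1 change. Of the 162 regions 130 were at boundaries, where all genes had 29.6%, 9.96%, 51.8% and 23.5%. The shares of the 162 regions cover both positions, so neither background is a like one and no difference is read from them. The share lost ran from 15.4% for U2AF and branch point proteins to 42.4% for other splicing regulators. The widest lost regions lay at Mbnl2 with 2255, Pcbp1 with 1763 and Scaf4 with 1603 bases. The widest gained ones lay at U2af2, the large U2AF subunit that binds the polypyrimidine tract, with 1881 bases and calls from 40 h on, at Ddx5 with 1772 bases and a call at 120 h alone, and at Ptbp1 with 1516 bases and calls in all lists but continuous E2 and 56 h.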

How the data were processed

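The 12 ATAC-seq libraries form 6 groups with 1 peak list each. In the deposited lists every row gives the chromosome and both end positions of a peak, and how the 2 libraries of a group were combined is not stated. Per the submitters' processing notes, BWA, MACS2 2.0 and STAR 2.5 were used, with no role or order given, and the build was mm9. On GRCm38, however, a protein-coding gene start or end was found within 1000 bases of 52.4% to 69.6% of peaks, against 8.98% to 9.17% after a shift of 100000 bases. GRCm38 was therefore used, with RefSeq genes and promoters. Sequencing depth is unknown.

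Exact duplicate rows (2530 in continuous E2 down to 115 at 120 h) and intervals over 10000 bases (1 to 16 a list) were dropped, and overlapping rows were merged. Lists were joined into union regions, called in a list where a peak overlapped by 1 base or more. A region overlapping several genes belonged to each. Cleaning, presence and assignment were tested on simulated lists. The members, gene lists and motifs were chosen with earlier results of these data known. Genes were named if lost, gained, without a region or with changing calls, together with the 2 widest regions per symbol family called in all lists. Some were added after their values were seen. Shares have 95% Wilson intervals. The genes were described beside all regions without a test. Tables were made with pandas 2.3.3 and numpy 2.4.6 under Python 3.11.15, and figures with matplotlib 3.10.9.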

Additional observations from a re-analysis of the deposited data

How the results depend on the processing

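No paired analysis was possible because the 2 libraries of a group share 1 list, which also means that leaving out a library could not be tried. Under 9 other settings, 119 values for these genes were computed, and 113 lay within the interval of the value reported or within 1.5 times of a count. The settings were assignment within 20 or 100 kb, a single gene per region, regions at member boundaries alone, wide peaks, lists of equal length by width, 50% reciprocal overlap, leaving out chromosomes 18 and 19, and leaving out shared regions. Of the lost regions, 100% instead of 64.3% were called at 72 h when member boundaries alone were used, because the regions away from boundaries drop out. Without the regions shared with another gene, a setting chosen after seeing the data, the peaks numbered 33 in continuous E2, 30 at 24 h, 31 at 40 h, 32 at 72 h and 25 at 120 h, because fewer regions remain. Genes with a region then numbered 34 instead of 50, which still counts as within 1.5 times, and 44 with a single gene per region. The 52.6% of all protein-coding genes was not recomputed under these settings. With 14 lost and 5 gained regions, depth unknown and 1 list per group, small differences between lists were not detectable.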
